A study of Mus musculus with 24 samples.

Results

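RNA held on chromatin was compared between epiblast-like cells (EpiLC) and naive embryonic stem cells (nESC) of the mouse embryonic stem cell line E14, in 6 of the 24 libraries of the study, 3 EpiLC chromatin libraries against 3 nESC chromatin libraries. The nESC were kept in serum-free N2B27 medium with leukaemia inhibitory factor (LIF), the MEK inhibitor PD0325901 and the GSK3 inhibitor CHIR99021. The EpiLC were grown on gelatin in N2B27 with 20 ng/ml activin A and 12 ng/ml basic fibroblast growth factor (bFGF), without those inhibitors, and were collected at day 3. Both states come from 1 cell line, and the labels do not say whether the 3 replicates of a group were separate cultures, so every error and p-value measures only the spread between these libraries, which may be technical. Each state was also sequenced as total, nucleoplasmic and cytoplasmic RNA, giving 8 groups of 3. The total and nucleoplasmic libraries are used below to measure how far the state difference on chromatin departed, in either direction, from that in each of them.

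Chromatin-associated RNA is what stays in the pellet when nuclei are washed in a buffer that releases soluble nuclear RNA. It is rich in transcripts still being made or processed and in noncoding RNAs that are retained in the nucleus, whereas most finished messenger RNA lies in the cytoplasm. Naive stem cells resemble the epiblast of the blastocyst and are held there by blocking the ERK branch of FGF signalling, by raising Wnt/β-catenin activity through GSK3 inhibition and by LIF acting through STAT3. Removing these and adding activin and FGF takes the cells to a formative state like the early postimplantation epiblast, in which naive factors such as Klf4 and Esrrb are shut off, Otx2 and Pou3f1 take over and the de novo DNA methyltransferases are made, while the core factor Oct4 (gene Pou5f1) is kept.

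A gene entered the comparison when its mean reached 1 FPKM (fragments mapped to a gene, scaled to the transcript's length and to the library's size) in either chromatin group, which left 14590 of 29759 genes. Of these, 12437 passed through both groups, 1256 only through EpiLC and 897 only through nESC, and a gene that passed only through the group where it is high had to differ. Differences are on the log2(FPKM + 0.5) scale after each library was centred on its median, which understates the change of low genes. The EpiLC and nESC libraries were deposited in separately normalized tables, so the state and the table cannot be told apart in a direct comparison and no p-value is given for it. A gene is called higher or lower when the difference was at least 2-fold and the 3 EpiLC libraries lay all above or all below the 3 nESC libraries. Differences between chromatin and another RNA fraction in how far the states differ were tested with limma, because each fraction is then set against another one of its own table.

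Depth was close in the 6 libraries. From the steps between low values, 1 FPKM in a transcript of 2 kb stood for 31.2 to 48.2 fragments, which puts the counting error of such a gene at 14.4 to 17.9%. Between 13101 and 13736 genes reached 1 FPKM in a library. Across genes, replicate libraries correlated at 0.961 to 0.981 in EpiLC and at 0.971 to 0.984 in nESC, and libraries of different states at 0.847 to 0.873, as a description with no test. EpiLC chromatin replicate 3 stood apart: its messages from the mitochondrial genome summed to 27303 FPKM, against 7888 and 5144 in EpiLC replicates 1 and 2 and 3869 to 5213 in nESC. Messages for ribosomal proteins and for the secretory pathway were raised in the same library. Within nESC, these messages were lowest in replicate 3 of that state. Some of the counts and genes that change without EpiLC replicate 3 are given beside the values, but not all. The part of EpiLC replicate 3 in the results was not tested.

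The cells carried the marker genes of their labels. Nanog, a transcription factor of the naive network, stood at 7.95, 6.55 and 6.49 FPKM in EpiLC chromatin and at 91.1, 91.8 and 76.4 FPKM in nESC chromatin. Fgf5, the classic marker of the postimplantation epiblast, stood at 27.5, 23.5 and 26.1 FPKM in EpiLC and at 0, 0.0257 and 0.067 FPKM in nESC. Pou5f1 stood at 149, 162 and 213 FPKM in EpiLC and at 177, 156 and 121 FPKM in nESC, with overlapping groups. The states were far apart for Nanog and Fgf5 and overlapped for the shared pluripotency factor.

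The promoters of 5 genes whose differences are described below are shown because they hold a motif of pluripotency or Wnt transcription factors, as the 250 bases before the RefSeq start in GRCm38.p6. They were searched on both strands for the octamer core, ATGCAAA or TTTGCAT, that POU-domain factors such as Oct4 recognise, and for the TCF/LEF motif, CTTTGAT or ATCAAAG, that the Wnt effectors recognise. The letters of the 2 motifs do not overlap each other in any of the 5. Capitals mark the octamer core in the first 4 promoters and the TCF/LEF motif in the last.
Nanog: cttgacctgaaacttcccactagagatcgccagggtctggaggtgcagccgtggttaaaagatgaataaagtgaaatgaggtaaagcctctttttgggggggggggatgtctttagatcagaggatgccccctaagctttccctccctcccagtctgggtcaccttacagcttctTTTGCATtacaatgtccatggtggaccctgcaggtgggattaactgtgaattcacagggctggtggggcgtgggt
Zfp42: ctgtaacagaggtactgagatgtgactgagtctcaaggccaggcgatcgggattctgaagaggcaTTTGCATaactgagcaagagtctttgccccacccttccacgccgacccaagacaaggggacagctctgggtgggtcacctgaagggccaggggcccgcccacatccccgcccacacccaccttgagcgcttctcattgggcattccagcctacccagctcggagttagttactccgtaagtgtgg
Sox2: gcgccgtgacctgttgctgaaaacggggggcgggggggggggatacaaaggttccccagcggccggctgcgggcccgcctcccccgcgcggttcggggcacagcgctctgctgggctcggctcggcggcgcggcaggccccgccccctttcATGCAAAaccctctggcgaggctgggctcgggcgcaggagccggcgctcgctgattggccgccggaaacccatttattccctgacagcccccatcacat
Pim2: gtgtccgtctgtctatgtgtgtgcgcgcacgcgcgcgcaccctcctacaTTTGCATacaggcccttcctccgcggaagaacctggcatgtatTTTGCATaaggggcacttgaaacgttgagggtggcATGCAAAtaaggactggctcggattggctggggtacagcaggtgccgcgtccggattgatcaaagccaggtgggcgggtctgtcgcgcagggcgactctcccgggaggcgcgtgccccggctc
Sp5: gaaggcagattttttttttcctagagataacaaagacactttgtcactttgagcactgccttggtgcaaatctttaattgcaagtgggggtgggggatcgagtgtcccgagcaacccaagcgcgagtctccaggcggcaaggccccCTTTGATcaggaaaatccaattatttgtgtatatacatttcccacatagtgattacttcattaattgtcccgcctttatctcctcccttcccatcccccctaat
Nanog lies on the plus strand and its window is chr6:122707239-122707488, with the octamer beginning 75 bases before the start. Zfp42 lies on the minus strand, in the window chr8:43307010-43307259, with the octamer 185 bases before the start. The Sox2 window is chr3:34649745-34649994 on the plus strand, with the octamer at 99 bases. The Pim2 window is chrX:7878056-7878305 on the plus strand and holds 3 octamers, beginning 201, 158 and 123 bases before the start. The Sp5 window is chr2:70474673-70474922 on the plus strand, with the TCF/LEF motif at 104 bases. As background, the octamer core is found in 1355 of 32851 mouse promoter windows of this length (4.12%) and the TCF/LEF motif in 1053 (3.21%). Counted per gene, 1257 of 27025 genes (4.65%) held the octamer and 1005 (3.72%) the TCF/LEF motif. Among genes of the naive list with an entry, 2 of 20 held the octamer (Nanog and Zfp42) and 0 of 20 the TCF/LEF motif. In the formative list 2 of 22 held the octamer (Foxp1 and Pim2) and 2 of 22 the TCF/LEF motif (Bcat1 and Pim2). Among Wnt targets 2 of 15 held the TCF/LEF motif (Sp5 and Tnfrsf19) and 2 of 15 the octamer (Cdx2 and Rnf43), and a match or its absence in so short a window describes the letters only.

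Over all genes compared, 3247 were called, 22.3% of 14590. EpiLC chromatin was higher for 1791 of them (12.3%) and lower for 1456 (9.98%). The difference reached 4-fold for 464 higher and 413 lower genes, 8-fold for 134 and 116, and 16-fold for 41 and 29. Protein-coding genes were called at 21.8% of 12807, long intergenic noncoding RNAs at 28.3% of 515 and antisense transcripts at 27.1% of 743; whether the counting used strand is not given in the sources used here, so a gene and its antisense partner may share reads. With libraries scaled to one sum instead, 1942 genes were higher and 1358 lower, and the median of all genes moved by 0.06. Centred over all 24873 genes with no filter on low values, 1545 were higher and 1989 lower and the median moved by −0.14, so the balance of directions differs with the filter. Of the genes called higher 20 were listed at 0 in every nESC chromatin library, and of those called lower 15 in every EpiLC chromatin library.

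**Figure D1:**
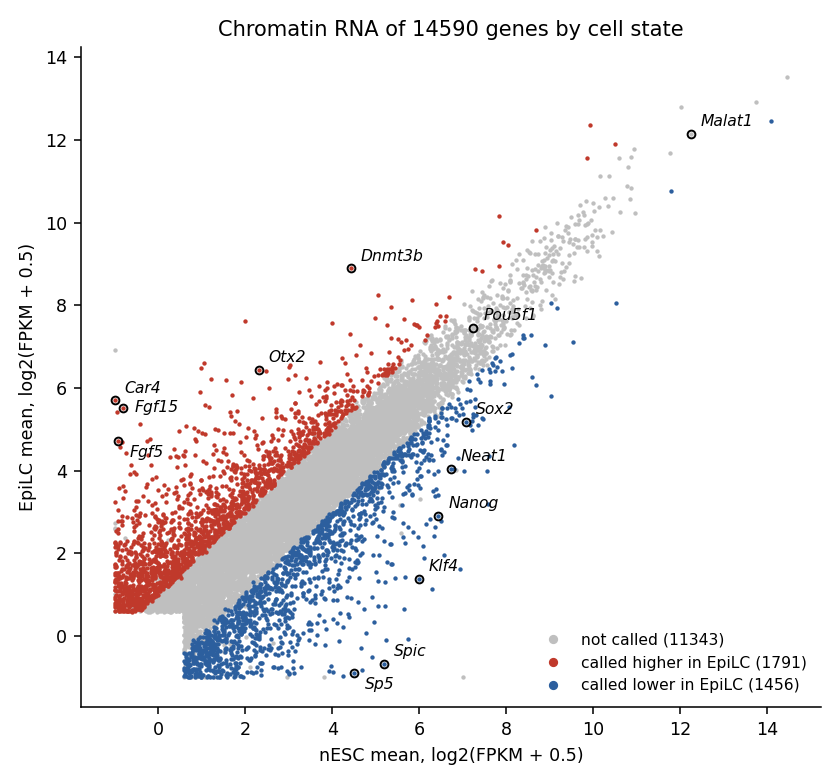
Mean chromatin level of each of the 14590 genes in nESC (x axis) and EpiLC (y axis), both as log2(FPKM + 0.5), with one point per gene. Red points are the 1791 genes called higher in EpiLC, blue points the 1456 called lower and grey points the rest; Fgf5, Fgf15 and Car4 sit at the upper left, Spic and Sp5 at the lower right, and Pou5f1 and Malat1 near the diagonal.

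Naive pluripotency genes were lower in EpiLC chromatin. Of 29 compared, 24 were called lower and 1 higher, with a median difference of −3.07 against 0.00 over all genes. Klf4, a naive transcription factor, stood at 1.78, 2.53 and 2.04 FPKM in EpiLC and at 60.9, 60.8 and 68.5 FPKM in nESC, 24.7-fold lower (log2 difference −4.63, SE 0.16). Tfcp2l1, which is sustained by LIF in naive cells, stood at 2.02, 3.28 and 2.49 FPKM against 142, 101 and 120 FPKM, 39.7-fold lower (−5.31, SE 0.20). The 2 sets of libraries were well separated for both genes. Esrrb, an orphan nuclear receptor of the same network, was lower by less, at 19.7, 23.1 and 14.8 FPKM against 133, 120 and 105 FPKM (6.19-fold). Zfp42, whose product Rex1 is used as a naive reporter, stood at 16.8, 16.8 and 12.4 FPKM against 121, 132 and 140 FPKM (8.4-fold). Prdm14, which represses FGF signalling and de novo methylation in naive cells, was at 0, 0.0604 and 0.0672 FPKM in EpiLC and 16, 15.5 and 15.5 FPKM in nESC. Spic, an ETS-family factor, had the largest difference of the list, at 0.295, 0.0927 and 0 FPKM against 32.2, 39.1 and 37.3 FPKM (−5.90, SE 0.20). These levels show a graded list: Esrrb and Zfp42 kept over 10 FPKM on EpiLC chromatin, whereas Prdm14 and Spic were near 0.

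The exceptions within the naive list were 5. Mael, a germline piRNA factor, was the 1 gene called higher, at 3.33, 2.38 and 2.89 FPKM against 0.279, 0.432 and 0.233 FPKM. Fgf4, the FGF ligand that stem cells themselves secrete, stood at 66.6, 77.6 and 78.4 FPKM in EpiLC and at 109, 91.7 and 83.8 FPKM in nESC, lower in every library but by 1.28-fold. Dppa3, a maternal and germline factor, was low in both states on chromatin, at 0.413, 0.325 and 0.354 FPKM against 0.832, 0.987 and 1.37 FPKM. Sox15 stood at 5.91, 4.81 and 7.07 FPKM against 3.66, 3.02 and 2.47 FPKM, higher in EpiLC but under 2-fold. Dppa5a overlapped between the states, at 363, 369 and 1024 FPKM in EpiLC and 1350, 1320 and 692 FPKM in nESC. Its high EpiLC value and its low nESC value are each from replicate 3. Dppa5a was called lower without EpiLC replicate 3 (2.98-fold) or without nESC replicate 3 (2.59-fold). Klf5 was the member that lost its call without EpiLC replicate 3, at 1.89-fold lower.

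Formative epiblast genes were higher in EpiLC chromatin for 23 of the 30 compared and lower for 3, with a median of 2.96. The remaining 2 of 32 listed genes, Wnt8a and Ccnd2, stayed under 1 FPKM in both states. Fgf15, an FGF ligand of the early epiblast and neural plate (chr7:144896531-144900953 in GRCm38), had the largest difference of the list, at 40.7, 46 and 49.1 FPKM in EpiLC against 0.0773, 0.0384 and 0.0979 FPKM in nESC (6.31, SE 0.16). Pou3f1, the POU factor also called Oct6, stood at 23, 27.9 and 25.5 FPKM against 0.0669, 0.0642 and 0.0559 FPKM (5.52, SE 0.16). Otx2, the homeodomain factor that works with Oct4 at formative enhancers, stood at 90.1, 90 and 78.5 FPKM against 3.07, 3.48 and 6.92 FPKM (18.2-fold). Otx2 was thus already above 3 FPKM on nESC chromatin, whereas Fgf15 and Pou3f1 were near 0 there. Sall2, a zinc finger factor, was 14.7-fold higher, Sox4, a SoxC factor, 22.6-fold higher, and Lin28b, which blocks let-7 maturation, 12.5-fold higher. Krt18, an epithelial keratin, was 8.79-fold higher while its partner Krt8 overlapped between the states, at 4.73, 5.08 and 4.83 FPKM against 6.44, 8.06 and 4.92 FPKM.

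The 3 formative-list genes that were lower in EpiLC were Bcat1, Sall3 and Nkx1-2. Bcat1, a branched-chain amino acid transaminase, stood at 42.8, 43 and 28.6 FPKM in EpiLC and at 198, 194 and 124 FPKM in nESC. Sall3, a Spalt-family factor, stood at 0.252, 0.266 and 0.257 FPKM against 6.61, 6.54 and 6.76 FPKM. Nkx1-2, a homeobox gene, stood at 0.099, 0.108 and 0.0773 FPKM against 6.65, 7.13 and 5.84 FPKM. The libraries of the 2 states did not overlap for any of these 3.

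**Figure D2:**
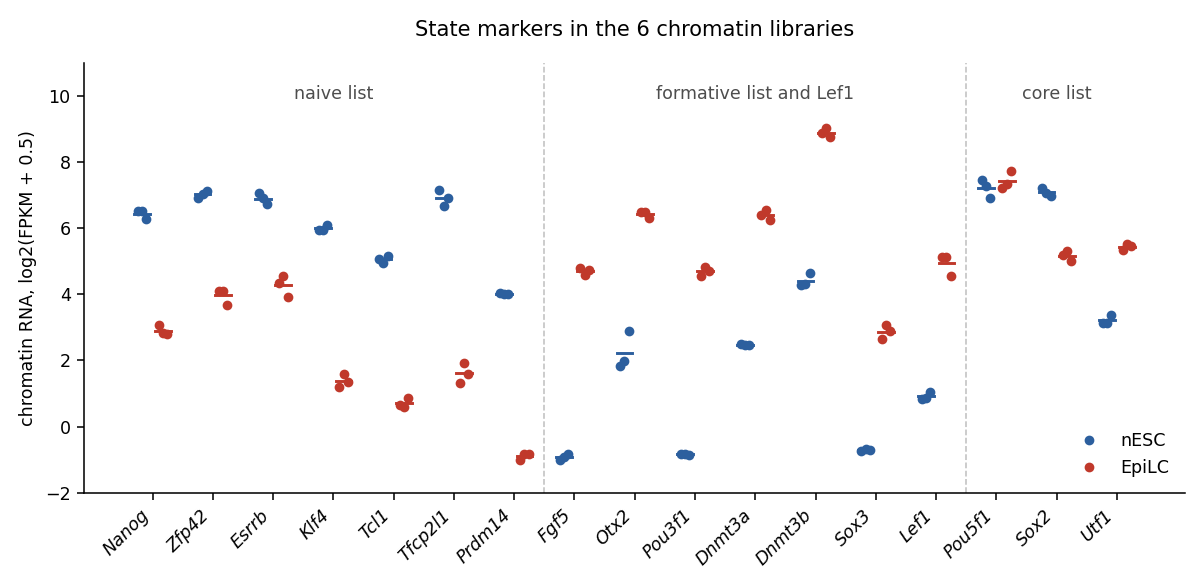
Chromatin level, log2(FPKM + 0.5), of 17 state markers in each of the 3 nESC (blue) and 3 EpiLC (red) libraries, with short bars at the means. The 7 naive-list genes are lower and the 6 formative-list genes and Lef1 higher in every EpiLC library, Pou5f1 overlaps, Sox2 is lower and Utf1 higher.

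Core pluripotency genes split. Of 21 compared, 5 were called higher and 1 lower, against 12.3% and 9.98% of all genes, with a median of 0.60. Sox2, the partner of Oct4, was the gene called lower, at 36.3, 39.4 and 31.5 FPKM in EpiLC and 149, 134 and 124 FPKM in nESC (3.77-fold). Utf1, a chromatin factor at Oct4-Sox2 targets, stood at 40.1, 45.3 and 43.7 FPKM against 8.22, 8.26 and 9.93 FPKM (4.66-fold higher). Lin28a, the RNA-binding paralogue of Lin28b, stood at 39.4, 41.3 and 38.7 FPKM against 4.68, 3.82 and 11.4 FPKM (6.24-fold higher). Neither Utf1 nor Lin28a overlapped between the states. Sall1, Tdgf1 (the Nodal coreceptor Cripto) and L1td1 were the others called higher, by 2.45-, 2.11- and 2.02-fold. Tdgf1 lost its call without EpiLC replicate 3 (1.81-fold) or nESC replicate 1 (1.96-fold), and L1td1 without replicate 1 of either state (1.86- and 1.84-fold).

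Genes that report ERK signalling were higher in EpiLC for 12 of 24 and lower for 2 (3 without EpiLC replicate 3), with a median of 0.72. The shares over all genes were 12.3% and 9.98%. The dual-specificity phosphatases switch ERK off again and are made in response to it. Dusp4 stood at 20.2, 20.6 and 19.1 FPKM in EpiLC and 0.532, 0.997 and 0.929 FPKM in nESC (15.6-fold). Dusp6 stood at 33.2, 34.2 and 41.7 FPKM against 8.97, 9.37 and 8.46 FPKM (3.88-fold). Spry4 and Spry1, inhibitors upstream of Ras, were 5.64- and 4.25-fold higher, and Myc was 4.72-fold higher. Other members did not differ alike: Spry2, Spred1, Etv5 and Dusp5 overlapped between the states, and Etv4 was 1.26-fold lower at 11, 12.2 and 13.4 FPKM against 15.5, 14.2 and 16.3 FPKM. Epha4, an ephrin receptor, was the largest departure, at 5.9, 5.44 and 7.71 FPKM against 82.5, 88.7 and 97.5 FPKM (13.3-fold lower), and Rasa4 was 2.16-fold lower.

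Direct targets of Wnt/β-catenin were lower for 7 of 15 and higher for 2, with a median of −0.79. Sp5, a zinc finger factor that is among the most Wnt-responsive genes, stood at 0, 0.0252 and 0.0841 FPKM in EpiLC and 24.5, 27.2 and 14.3 FPKM in nESC (−5.35, SE 0.25); its TCF/LEF motif is shown above. Axin2, the feedback inhibitor, stood at 4.17, 4.79 and 6.84 FPKM against 67, 54.3 and 51.7 FPKM (10.3-fold lower). T, the primitive streak factor Brachyury, stood at 0.0333, 0.198 and 0.0867 FPKM against 15.3, 12.9 and 17.5 FPKM (26.1-fold lower). All 3 were above 10 FPKM on nESC chromatin in every library and low on EpiLC chromatin. Notum, Cdx1, Tnfrsf19 and the receptor gene Fzd5 were the others called lower. Lef1, itself a Wnt effector, went the other way, at 34.5, 34.5 and 22.8 FPKM against 1.28, 1.31 and 1.58 FPKM (16.1-fold higher), as did the receptor gene Fzd7 (8.8-fold higher). Of 16 signal transduction components 2 were called higher, the repressor Tcf7l1 (2.44-fold) and the coreceptor Lrp5 (2.34-fold), and 1 lower, Porcn, which acylates Wnt ligands (6.14-fold). Over all genes 12.3% were called higher and 9.98% lower.

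In the Nodal and activin pathway 5 of 18 genes were called higher and 2 lower, against 12.3% and 9.98% of all genes. The list's median was −0.05. Lefty1, a secreted Nodal antagonist and target, stood at 150, 195 and 269 FPKM in EpiLC and 34.1, 29.8 and 29.4 FPKM in nESC (6.28-fold). Skil, a SMAD corepressor, stood at 150, 135 and 106 FPKM against 19.5, 23.9 and 29.4 FPKM (5.28-fold). Pmepa1, Ltbp1 and Foxh1, the DNA-binding partner of SMAD2, were 2.44-, 2.77- and 2.39-fold higher. The ligand Nodal itself overlapped, at 17.4, 22 and 47.2 FPKM against 38, 34.2 and 24.2 FPKM. Pcsk6, a convertase that matures Nodal, was 5.86-fold lower, and Smad7, an inhibitory SMAD, stood at 36.5, 42.1 and 38.1 FPKM against 121, 98.8 and 54.3 FPKM (2.23-fold lower, and 1.9-fold with no call without nESC replicate 1). Fst, an activin-binding inhibitor, was 1.81-fold lower, and called, at 2.18-fold, without EpiLC replicate 3.

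LIF and STAT3 genes were lower for 4 of 13 and higher for none, against 9.98% and 12.3% of all genes. The list's median was −0.76, and 10 of the 13 had all EpiLC libraries below all nESC libraries at some fold. Over all 14590 genes the libraries of the states were apart at some fold for 54.8%, 4099 higher and 3893 lower. Socs3, the feedback inhibitor of the receptor, stood at 2.75, 2.82 and 3.27 FPKM in EpiLC and 10.9, 12.9 and 44.1 FPKM in nESC (5.54-fold lower), with nESC replicate 3 far above the other nESC libraries and 3.6-fold lower without it. Il6st, the signalling receptor chain gp130, stood at 12.8, 12 and 12.8 FPKM against 39.9, 40.9 and 44.9 FPKM (3.27-fold lower). Bcl3 and Pim1 were 4.1- and 2.09-fold lower, and Lifr was 1.98-fold lower, just short of a call. Lifr was called without EpiLC replicate 3 (2.01-fold), nESC replicate 1 (2.14-fold) or nESC replicate 2 (2.06-fold).

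The de novo DNA methyltransferase genes were among the most abundant formative transcripts. Dnmt3b stood at 472, 525 and 430 FPKM in EpiLC and 19.1, 19.2 and 24.7 FPKM in nESC (22.1-fold). Dnmt3a stood at 83.7, 93.4 and 76.1 FPKM against 5.1, 4.99 and 5.08 FPKM (15.1-fold), and the catalytically inactive cofactor Dnmt3l at 39, 43.5 and 30.6 FPKM against 9.49, 9.06 and 14.9 FPKM (3.31-fold). The maintenance enzyme Dnmt1 overlapped between the states, at 73.6, 77.5 and 57.3 FPKM against 80.2, 77 and 69.9 FPKM. Among 17 other methylation genes 2 were higher and 1 lower, against 12.3% and 9.98% of all genes, with a median of 0.05. Tet3, a methylcytosine oxidase, was 5.04-fold higher, Gadd45g, linked to demethylation, 17.1-fold higher (27.2-fold without nESC replicate 3) and the methyl-binding protein gene Mbd1 2.17-fold lower. Tet2, counted in the naive list, stood at 9.48, 4.81 and 2.89 FPKM against 70.8, 95.3 and 79.3 FPKM (14.6-fold lower), and Tet1 overlapped at 116, 90 and 62.1 FPKM against 32, 44.6 and 76.4 FPKM. Tet1 was called higher without EpiLC replicate 3 (2.09-fold) or nESC replicate 3 (2.27-fold), so 3 of 17 methylation genes were higher without the first of these.

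Noncoding RNAs that stay in the nucleus showed large differences in a few members. Of 17 compared, 3 were called higher and 1 lower, against 12.3% and 9.98% of all genes, with a median of 0.03. Neat1, the scaffold of paraspeckles, stood at 14.7, 16.4 and 16.9 FPKM in EpiLC and 128, 95.3 and 92.5 FPKM in nESC (6.37-fold lower). Ftx, a noncoding gene of the X-inactivation centre, stood at 53.9, 42.3 and 37.2 FPKM against 5.32, 5.14 and 7.66 FPKM (6.85-fold higher). Jpx, its neighbour in the same region, stood at 2.08, 1.91 and 1.99 FPKM against 0.11, 0.145 and 0.0283 FPKM (4.19-fold higher). Miat was 20.7-fold higher. Xist overlapped at 13.9, 6.87 and 4.93 FPKM against 6.63, 6.24 and 7.13 FPKM, and its antisense gene Tsix was 1.51-fold lower. Malat1, one of the most abundant nuclear RNAs, also overlapped, at 5549, 4520 and 3565 FPKM against 4762, 4391 and 5438 FPKM. Noncoding hosts of small nucleolar RNAs were lower for 2 of 12 (Snhg3 and Snhg6) and higher for none, against the same shares of all genes. Their median was −0.56.

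Replication-dependent histone genes, which are made in S phase without polyadenylation and so are kept by ribosomal depletion but not by poly(A) selection, were higher in EpiLC chromatin for 16 of 53 and lower for none, with a median of 0.77. The EpiLC libraries lay above the nESC libraries at some fold for 40 of the 53 and below for 1, against 4099 and 3893 of 14590 genes in all. Summed levels were 32362, 36401 and 42379 FPKM in EpiLC and 24321, 21883 and 20369 FPKM in nESC, without overlap. Hist1h1e, a linker histone gene, stood at 242, 247 and 300 FPKM against 88.6, 78.6 and 80.3 FPKM (3.15-fold), and Hist1h2af, a core histone gene, at 54.8, 61.5 and 94.1 FPKM against 14.9, 14.5 and 13.1 FPKM (4.67-fold). Without EpiLC replicate 3 the count was 14 of 53 and the median 0.66. Many of these genes are near-identical copies, so how the authors' counting split their reads makes the values of single members uncertain.

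Genes for cell adhesion and matrix differed in both directions, 9 of 25 higher and 4 lower (8 and 5 without EpiLC replicate 3), with a median of 0.58. The shares over all genes were 12.3% and 9.98%. Epithelial genes were among those higher. Epcam stood at 56.2, 60.3 and 166 FPKM in EpiLC and 10.2, 8.93 and 3.96 FPKM in nESC (10.8-fold), and Cldn7, a tight junction claudin, was 9.54-fold higher. Cdh1, E-cadherin, stood at 126, 149 and 285 FPKM against 58.5, 64 and 53.2 FPKM (2.96-fold). EpiLC replicate 3 was the highest library for all 3 of these membrane-protein genes. Without both chromatin libraries numbered 3 Epcam was 5.75-fold and Cldn7 5.72-fold higher, both still called. Among matrix genes Lama1 and Nid1, both basement membrane components, were 12.9- and 15.6-fold lower, Fn1, fibronectin, was 3.18-fold lower, and Lamb1 was 6.15-fold higher at 41.4, 49.9 and 87.6 FPKM against 10.8, 8.83 and 6.98 FPKM.

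Among glycolysis genes some transporters and some enzymes differed. Slc16a3, a lactate exporter, stood at 188, 219 and 504 FPKM in EpiLC and 31.6, 30.7 and 35.4 FPKM in nESC (8.3-fold higher), and the glucose transporter gene Slc2a1 at 93.3, 109 and 229 FPKM against 46.7, 44.3 and 44.8 FPKM (2.89-fold). The other glucose transporter gene, Slc2a3, stood at 48.2, 52.6 and 98 FPKM against 474, 437 and 323 FPKM (6.45-fold lower). Transcripts of these 3 membrane proteins were again highest, within EpiLC, in replicate 3. The enzyme gene Pfkp, a phosphofructokinase, stood at 148, 151 and 90.5 FPKM against 443, 412 and 574 FPKM (3.74-fold lower). Of 24 glycolysis genes 5 were called higher and 3 lower, against 12.3% and 9.98% of all genes, with a median of 0.18. Without EpiLC replicate 3 it was 4 and 2, since Ldha (1.92-fold) and Hk2 (1.81-fold) lost their calls. Ldha also lost its call without nESC replicate 2 (1.95-fold), and Hk2 without nESC replicate 3 (1.97-fold). Gapdh overlapped, at 963, 1027 and 999 FPKM against 1049, 840 and 893 FPKM.

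Genes known to keep introns detained in the nucleus, mostly splicing regulators, differed little in size but mostly in one direction. Of 31 compared, 1 was called lower (Ogt, the O-GlcNAc transferase, 2.77-fold) and none higher, yet 22 had all EpiLC libraries below all nESC libraries and 1 above, against 3893 and 4099 of 14590 genes, with a median of −0.50. The libraries numbered 3 moved with these genes: nESC replicate 3 was above the mean of the other nESC libraries for 26 of 31 (median 0.28) and EpiLC replicate 3 for 2 of 31 (−0.16). Without both the list's median was −0.35. Rbm39, an RNA-binding splicing factor, stood at 439, 352 and 355 FPKM in EpiLC and 683, 759 and 804 FPKM in nESC. Chromatin modifier genes were higher for 7 of 47 and lower for 2, against 12.3% and 9.98% of all genes, with a median of 0.11. Chd9, a chromodomain helicase, was 4.56-fold higher and Kdm3a, an H3K9 demethylase, stood at 81.7, 69.1 and 53.2 FPKM against 227, 271 and 245 FPKM (3.69-fold lower). Among subunits of Polycomb repressive complex 2, Ezh2 overlapped between the states, Suz12 was 1.58-fold lower without a call, and Eed, the 1 called, stood at 101, 80.1 and 75.3 FPKM against 154, 165 and 203 FPKM (2.04-fold lower). Eed lost its call without EpiLC replicate 2 or 3 (1.97- and 1.95-fold), without nESC replicate 3 (1.88-fold) and with one sum, where 1 modifier was called lower.

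**Figure D3:**
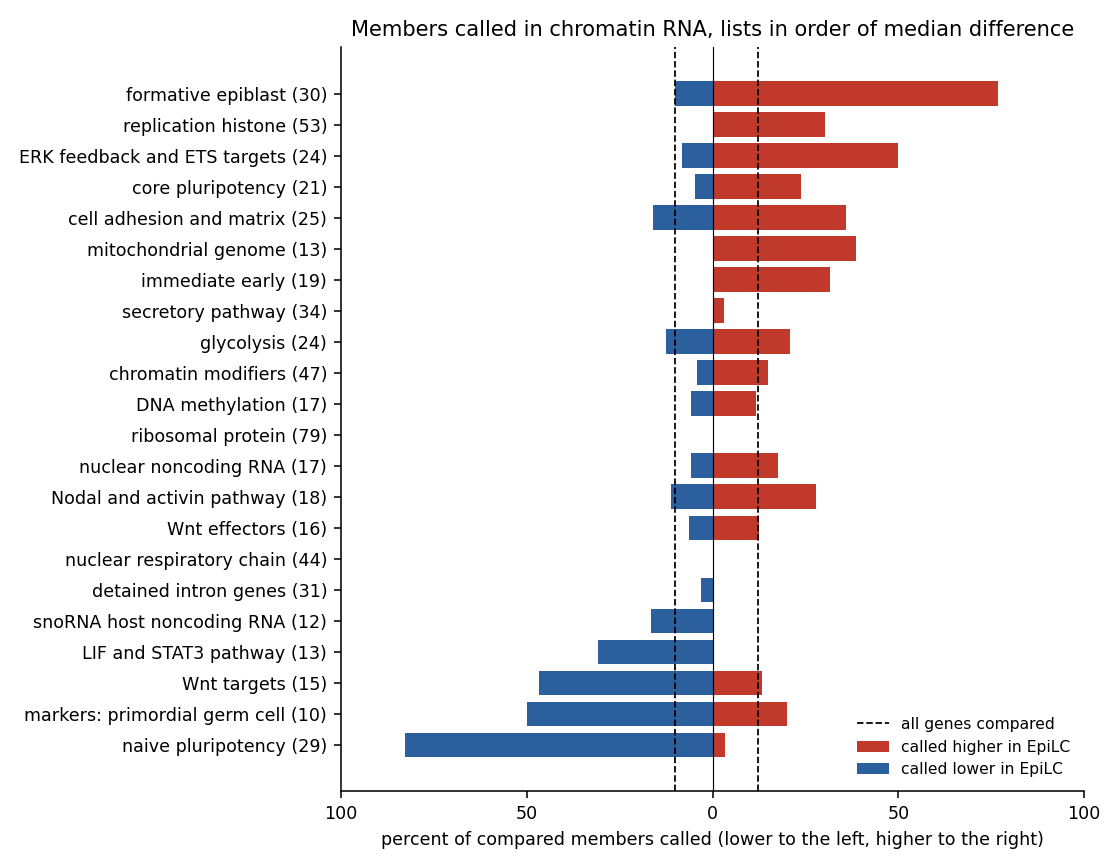
Share of compared members called higher (red, to the right) and lower (blue, to the left) in EpiLC chromatin for each gene list with at least 10 compared members, given in parentheses, in order of median difference. Dashed lines mark the shares over all genes, 12.3% higher and 9.98% lower; the naive list extends farthest to the left and the formative list farthest to the right.

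Messages of mitochondrial, ribosomal protein, respiratory chain and secretory genes lie, as mature RNA, mostly outside the nucleus. Their levels were compared between the chromatin libraries. In EpiLC replicate 3 all 13 mitochondrial genes and all 79 ribosomal protein genes were above the mean of replicates 1 and 2, by a median log2 of 1.76 and 0.96, and so were 32 of 34 secretory genes (1.16) and 42 of 44 nuclear respiratory chain genes (0.89). In EpiLC total RNA replicate 3 the same medians were 0.18, −0.01, −0.00 and −0.00. In nESC chromatin replicate 3, set against nESC replicates 1 and 2, they were 0.04, −0.34, −0.25 and −0.25. There 7 of 13 mitochondrial, 1 of 79 ribosomal protein, 9 of 34 secretory and 5 of 44 respiratory chain genes were above that mean. Mitochondrial genes were called higher for 5 of 13 with all libraries, for 2 with 3 lower without EpiLC replicate 3, and for none with 3 lower without both chromatin libraries numbered 3. Of the nuclear respiratory chain genes 0 of 44 were called with all libraries. Without EpiLC replicate 3, 8 were lower, and 10 without both chromatin libraries numbered 3. No ribosomal protein gene of 79 was called with all libraries, 1 was lower without EpiLC replicate 3 and 3 without both. Of 34 secretory genes 1, Manf, was called higher with all libraries. Without EpiLC replicate 3 Manf was 1.98-fold higher with no call, 2 genes were lower and the list's median went from 0.31 to −0.10. Without both libraries numbered 3 Manf was 1.82-fold higher with no call, 3 genes were lower and the median was −0.15. Leaving EpiLC replicate 3 out changed the counts over all genes to 1857 higher and 1578 lower.

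**Figure D4:**
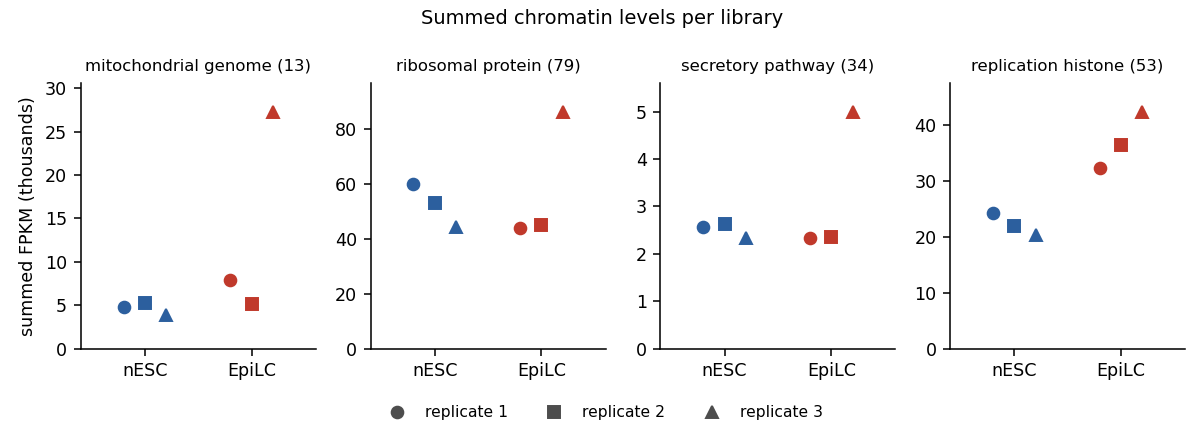
Summed FPKM, on an axis scaled as labelled, of the mitochondrial genome (13 genes), ribosomal protein (79), secretory pathway (34) and replication histone (53) lists in each chromatin library; marker shapes give the replicate. EpiLC replicate 3 lies far above the other 5 libraries in the first 3 panels, whereas in the histone panel all 3 EpiLC libraries lie above all 3 nESC libraries.

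Markers of other cell types were measured in both states. Summed trophectoderm markers were 12.9 to 15.8 FPKM in EpiLC and 20.7 to 23.8 FPKM in nESC, with the defining gene Cdx2 at 0 in all 3 EpiLC libraries. Mesoderm markers summed to 5.64 to 7.06 FPKM against 19.9 to 22.8 FPKM, where T makes up most of the nESC level and Msgn1 was at 0 in all 3 nESC libraries. Fibroblast or feeder markers summed to 11.7 to 25.1 FPKM in EpiLC and 3.7 to 4.08 FPKM in nESC. Of these 14 markers 3 were compared, all only through EpiLC, so they had to be higher there. The others stayed under 1 FPKM in both states. Thy1 (5.66, 6.15 and 10.5 FPKM against 0.538, 0.194 and 1.7 FPKM) and Dcn (3.58, 2.29 and 10.1 FPKM against 0, 0 and 0.0326 FPKM) were called higher, against 12.3% of all genes. S100a4 was at 0 in all EpiLC libraries. The part of the fibroblast or feeder markers in the matrix gene values was not tested. Neural markers summed to 28.3 to 36.3 FPKM against 22.2 to 36.9 FPKM, mostly Nes. Primitive endoderm markers summed to 250 to 522 FPKM against 238 to 450 FPKM, mostly Apoe, which overlapped between the states at 203, 221 and 423 FPKM against 433, 404 and 226 FPKM. Of the 4 compared, Lamb1 was the 1 called. Bulk RNA cannot tell fewer cells of a type from less RNA per cell.

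Genes of the rare 2-cell-like state, which cycles on in a small share of naive cells, were lower for 7 of 9, against 9.98% of all genes. None of the 9 was higher, and their median was −1.46. All 9 reached a mean of 1 FPKM in nESC but only 2 in EpiLC, so the rest of the 9 had to be lower. Summed over all 19 genes found in the data, levels were 52.2 to 63.2 FPKM in EpiLC and 79.3 to 103 FPKM in nESC. The count lower was 8 of 9 without EpiLC replicate 3 and 9 of 10 without both chromatin libraries numbered 3. Zscan4c stood at 1.39, 1.15 and 2.17 FPKM in EpiLC and 11.1, 13.9 and 3.77 FPKM in nESC (4.43-fold lower), though the Zscan4 copies are near-identical and their single values uncertain. Primordial germ cell genes were lower for 5 of 10 and higher for 2, against 9.98% and 12.3% of all genes. Kit, the stem cell factor receptor, stood at 1.88, 3.15 and 3.58 FPKM against 42.8, 40.2 and 40.2 FPKM (12.7-fold lower), and Sycp3, a synaptonemal complex gene, was 2.72-fold higher.

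Across all genes, those with the largest differences went beyond the listed pathways. Car4, a carbonic anhydrase anchored at the cell surface, stood at 34.1, 37.1 and 83 FPKM in EpiLC and was listed at 0 in all 3 nESC libraries, so no fold is given. Enpp2, the enzyme autotaxin that makes lysophosphatidic acid, stood at 30.8, 31 and 65.7 FPKM against 0, 0.0551 and 0 FPKM (6.27, SE 0.30). Esrp1, an epithelial splicing regulator, stood at 37.5, 37.3 and 28.4 FPKM against 0.126, 0.101 and 0.516 FPKM (5.57, SE 0.24). Unlike Car4 and Enpp2, Esrp1 was not higher in EpiLC replicate 3. Emb, the membrane glycoprotein embigin, stood at 131, 125 and 327 FPKM against 2.62, 3.49 and 4.34 FPKM, and Bcl11a, a zinc finger repressor, at 25.5, 21.7 and 15.8 FPKM against 0.0586, 0.0405 and 0.202 FPKM. The rest of the 15 largest were the listed genes Fgf15, Fgf5, Pou3f1, Cldn6 and Enpp3 with Mmp25, Stxbp6, Jph4, Bst2 and Hs6st2.

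On the other side, Trpm1, a cation channel of the melastatin family, stood at 0.514, 0.744 and 0.0894 FPKM in EpiLC and 50.4, 45.1 and 62.8 FPKM in nESC (−5.87, SE 0.27). Dmgdh, a mitochondrial enzyme of choline breakdown, stood at 0.0654, 0.051 and 0.0709 FPKM against 26.6, 30.3 and 18.9 FPKM (−5.50, SE 0.20). Crxos, a homeobox gene, stood at 0.189, 0.408 and 0.707 FPKM against 42.2, 38.9 and 29.8 FPKM (−5.36, SE 0.24). These 3 were close to absent from EpiLC chromatin. Aspa, aspartoacylase, stood at 0.0152, 0 and 0.0198 FPKM against 23.6, 23.3 and 8.85 FPKM, and Ntn1, the guidance ligand netrin 1, at 0.663, 0.881 and 0.759 FPKM against 34.5, 30.4 and 26.7 FPKM. The rest of the 15 were Sh2d4b and Jam2 with Spic, Sp5, Tfcp2l1, Nr5a2, Tbx3, Prdm14, T and Klf4.

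The same rule applied to total RNA called 4080 of 13227 genes (30.8%), 2355 higher (17.8%) and 1725 lower (13%). Of the genes called higher in chromatin 1242 were also called higher in total RNA (69.3% of the chromatin calls and 52.7% of the total RNA calls), and of those lower 919 (63.1% and 53.3%). Opposite calls were rare, and all 4 are named here after their values were seen: Mcam was higher in chromatin and lower in total RNA, and Srpk3, Id3 and Smad7 were the reverse. Smad7 in total RNA stood at 24.5, 25 and 24.5 FPKM in EpiLC and 12.7, 10.1 and 11 FPKM in nESC, against the chromatin values above.

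Whether the state difference in chromatin departed from that in total RNA was tested for 13383 genes over 12 libraries (limma, two-sided, Benjamini-Hochberg over all genes). The difference departed by at least 2-fold at an adjusted p under 0.05 for 1385 genes, 10.3%. The chromatin difference lay above the total RNA difference for 574 (4.29%) and below it for 811 (6.06%). With libraries scaled to one sum the split was 344 and 1004, and the median of all genes moved by −0.15; with no filter it was 994 and 600, and the median moved by 0.15. The balance of directions therefore rests on the scaling and the filter. Against nucleoplasmic RNA 1207 of 13294 genes were called (9.08%), 622 above (4.68%) and 585 below (4.4%), or 732 and 373 with one sum and 520 and 1228 with no filter.

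Naive genes differed less between the states on chromatin than in total RNA: the median was −3.07 in chromatin and −4.02 in total RNA, and the chromatin difference lay above the other for 10 of 29 and below for 2 (7 and 4 with one sum). Zfp42 in total RNA differed by −4.94 against −3.07 on chromatin, a departure of 1.90 (SE 0.16, adjusted p = 2.38e-05, limma). Fbxo15, an F-box gene bound by Oct4, departed by 2.76 (SE 0.15, adjusted p = 2.68e-06), at 12.5, 11.8 and 10.4 FPKM against 55.4, 64.5 and 72.3 FPKM on chromatin and 5.89, 5.55 and 5.78 FPKM against 228, 231 and 206 FPKM in total RNA. Dppa3 departed by 4.06 (SE 0.23, adjusted p = 2.75e-06), since its total RNA stood at 1.11, 0.672 and 1.23 FPKM against 42.8, 42.2 and 43.6 FPKM while its chromatin levels were low in both states. Klf4 went the other way, with a chromatin difference beyond that in total RNA by −1.83 (SE 0.17, adjusted p = 3.82e-05), as did Tbx3 (−1.02, SE 0.34, adjusted p = 0.0421). Nanog (0.73) and Tfcp2l1 (0.09) did not pass the 2-fold limit.

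Formative genes departed in both directions, 3 of 30 above and 5 below, with medians of 2.96 in chromatin and 3.57 in total RNA. Pim2, a serine/threonine kinase gene whose promoter with 3 octamers is shown above, stood at 33.4, 33 and 25.8 FPKM against 9.77, 9.95 and 8.96 FPKM on chromatin and at 66.2, 67.4 and 71 FPKM against 2.66, 2.52 and 2.43 FPKM in total RNA (−2.85, SE 0.14, adjusted p = 1.7e-06). The level of Pim2 in nESC was higher on chromatin than in total RNA, and in EpiLC lower. Fgf15 departed upwards, by 1.32 (SE 0.16, adjusted p = 0.00017). In the core list Utf1 departed by −1.93 (SE 0.18, adjusted p = 3.58e-05).

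Immediate early genes, which respond to growth factors within minutes, held the largest single departure among the genes named, that of Fos. Fos (FBJ osteosarcoma oncogene), an AP-1 subunit, stood at 23.4, 22.8 and 24 FPKM in EpiLC chromatin and 41.3, 49 and 50.4 FPKM in nESC chromatin. Its total RNA stood at 38.9, 33.5 and 36.8 FPKM in EpiLC and 0.318, 0.472 and 1.56 FPKM in nESC. Fos was thus lower in EpiLC on chromatin and far higher in total RNA, a departure of −5.92 (SE 0.36, adjusted p = 4.11e-06). Fosb was higher in both, at 15.3, 18.5 and 26.9 FPKM against 6.95, 7.47 and 8.34 FPKM on chromatin and 20.2, 19.3 and 18.9 FPKM against 0.108, 0.141 and 0.366 FPKM in total RNA (−3.49, SE 0.28, adjusted p = 2.38e-05). Jun, Egr1, Zfp36 and Ccn1 departed the same way by −1.50, −1.39, −1.52 and −1.98. In all 6 of 18 tested members lay below and none above. On chromatin alone 6 of 19 were called higher in EpiLC and none lower, against 12.3% and 9.98% of all genes. Egr1 (7.76-fold) and Jun (5.84-fold) differed most. Without EpiLC replicate 3 Fos was also called, 2.04-fold lower, as it was without nESC replicate 1 (2.13-fold). Against nucleoplasm the departures of Fos (0.65, adjusted p = 0.0815) and Fosb (0.68, adjusted p = 0.0836) did not pass. In nucleoplasm Fos stood at 1.85, 2.39 and 3.84 FPKM in EpiLC and 8.03, 9.95 and 9.24 FPKM in nESC.

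Signalling genes held further departures. Id3, a BMP and SMAD target that inhibits basic helix-loop-helix factors, was lower in EpiLC on chromatin, at 8.56, 10.9 and 13.2 FPKM against 31.2, 39.3 and 20.3 FPKM. In total RNA it was higher, at 34.3, 40.3 and 33.8 FPKM against 7.89, 4.79 and 5.8 FPKM (−3.86, SE 0.34, adjusted p = 3.04e-05). Its departure from nucleoplasm was of like size, −4.09 (SE 0.30, adjusted p = 1.09e-05). Lefty2, the second Nodal antagonist, overlapped between the states on chromatin, at 65.3, 79.2 and 129 FPKM against 66.5, 63.6 and 55.5 FPKM, and was lower in EpiLC total RNA, at 27.1, 29.2 and 29.1 FPKM against 217, 178 and 190 FPKM (3.28, SE 0.29, adjusted p = 3.04e-05). Trh, the precursor of thyrotropin-releasing hormone, had the largest upward departure among the genes named, at 51, 54.7 and 123 FPKM against 40.7, 39.9 and 63.6 FPKM on chromatin and 21.1, 24.6 and 24.3 FPKM against 420, 382 and 341 FPKM in total RNA (4.60, SE 0.41, adjusted p = 3.16e-05). Notum, a Wnt-inactivating deacylase, departed upwards by 2.37, and Axin2, Znrf3 and Nkd2 downwards by −1.21, −1.10 and −1.89. Dusp4 and Dusp6 departed by −1.23 and −1.39, their total RNA differing more than their chromatin RNA.

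**Figure D5:**
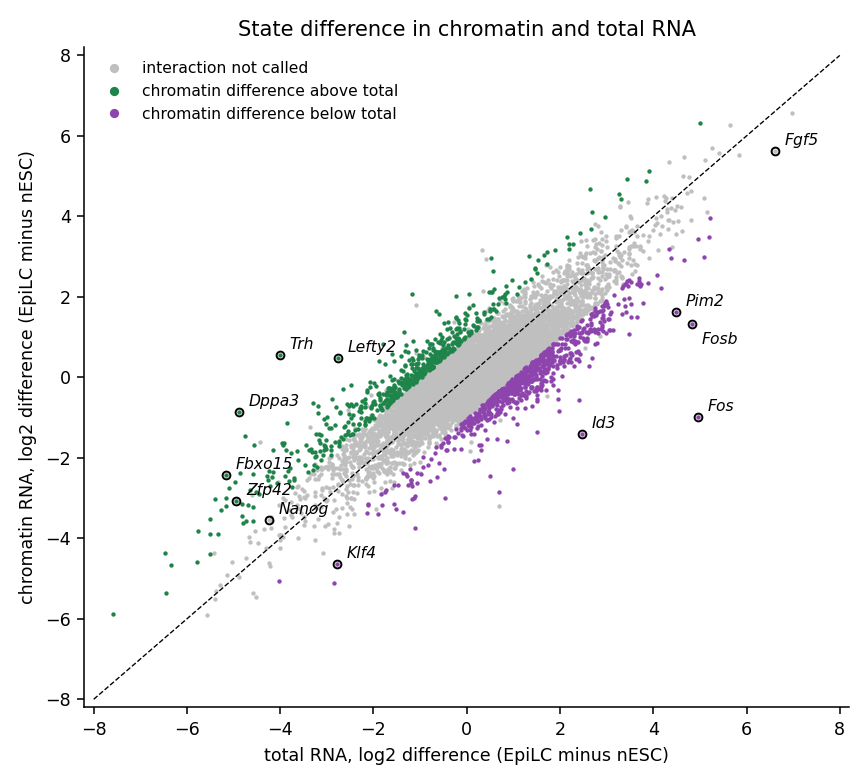
EpiLC minus nESC log2 difference of each gene in total RNA (x axis) and chromatin RNA (y axis), with the dashed line marking equal differences. Green points are genes whose chromatin difference lay above the total RNA difference by the interaction test and purple points those below; Trh, Dppa3 and Fbxo15 lie above the line and Fos, Fosb, Id3 and Pim2 below it.

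Chromatin modifier genes departed in one direction. In total RNA 19 of 47 were called higher in EpiLC and 4 lower, with a median of 0.58, whereas on chromatin it was 7 and 2 with a median of 0.11. The chromatin difference lay below for 13 of 47 and above for none (16 with one sum, 10 without EpiLC replicate 3). Crebbp, an acetyltransferase, departed by −1.91 (SE 0.17, adjusted p = 3.2e-05). Crebbp on chromatin stood at 24.7, 23.9 and 18.8 FPKM against 18, 13.6 and 17.2 FPKM, 1.36-fold apart. Arid1a, Kmt2a, Jarid2, Chd4 and Ep300 were among the others, by −1.59, −1.52, −1.40, −1.30 and −1.22. Many of these genes have long transcripts, and the departure went with transcript length over all genes: in 4 classes of equal size by exonic length, from shortest to longest, its median was 0.17, 0.07, −0.02 and −0.22. The median total RNA difference in the same classes was −0.15, −0.11, −0.01 and 0.22, and the median chromatin difference 0.03, −0.01, −0.05 and 0.02. In the longest class 44 genes lay above and 312 below, and in the shortest 254 and 141. Short histone genes lay on the other side, 9 of 53 above and none below (5 without EpiLC replicate 3). The part of length in the values of single genes was not tested.

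Against nucleoplasm, Id3, Pim2, Arsb and Lst1 were again among the 10 largest named departures in their direction, as against total RNA, and others were called there. Dnmt3l differed by 1.73 on chromatin but stood at 165, 171 and 124 FPKM in EpiLC nucleoplasm and 6.66, 6.41 and 6.02 FPKM in nESC nucleoplasm (−2.73, SE 0.26, adjusted p = 7.52e-05). Dnmt3b departed the same way by −1.54 (SE 0.16, adjusted p = 0.000117). Sp5 and T, both Wnt targets, departed by −3.40 (SE 0.29, adjusted p = 3.97e-05) and −3.30 (SE 0.22, adjusted p = 6.12e-06): in nESC nucleoplasm Sp5 reached only 1.4, 1.72 and 1.43 FPKM and T 1.05, 0.77 and 0.934 FPKM, far under their nESC chromatin levels. Lars2, the mitochondrial leucyl-tRNA synthetase gene, overlapped on chromatin and was high in nESC nucleoplasm, at 106, 127 and 106 FPKM against 13.3, 14.4 and 15.3 FPKM in EpiLC (2.86, SE 0.20, adjusted p = 8.25e-06). Of 24 glycolysis genes 6 lay below and 1 above (4 and 2 with one sum), against 4.4% and 4.68% of all genes. Among those below were Pfkl (−1.38), Ldha (−1.31) and Eno1 (−1.14). Among naive genes Jam2 (1.37), Dppa3 (1.43) and Khdc3 (1.19) lay above, and Gbx2 (−1.55) and Manba (−1.05) below. With one sum 2 naive genes lay above and 1 below.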

How the data were processed

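Cells of the E14 line were fractionated over a sucrose buffer, RNA was depleted of ribosomal RNA and stranded total RNA libraries were sequenced, per the labels' protocols. The deposited values are FPKM per gene, in 1 table for nESC and 1 for EpiLC; the authors used TopHat2, Cuffnorm and the mm10 build, per the submitters' processing notes. Their versions, the annotation, the use of strand and how Cuffnorm scaled the libraries were not given in the sources used here.

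The 29759 genes of both tables were joined on gene identifier, and 29586 took symbols and GRCm38 positions from GENCODE. Libraries were compared as log2(FPKM + 0.5), centred on their medians, where either chromatin group averaged 1 FPKM or more. For the departures, the mean over the 12 libraries had to reach 1 FPKM. A call needs a 2-fold difference and libraries that do not overlap. Standard errors and the tests of departure, the interaction of state and fraction over 12 libraries, come from limma 3.58.1 in R 4.3.3 (lmFit, eBayes with trend), two-sided, with Benjamini-Hochberg adjustment at 0.05. The scripts were tested on simulated data. Promoters are RefSeq's.

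Named were the 15 called genes with the largest difference in each direction and at least 5 FPKM in the higher group, the up to 4 most different members of every list and 19 fixed markers. Each test of departure added the 10 called genes with the largest value in each direction, among those averaging at least 5 FPKM in the highest group. Clone-type names and small RNAs were left out. Other list members were named after their values were seen, as exceptions or for their role. Members, lists and rules were chosen with earlier results of these data known. Alternatives were the pseudocount, the filter, the scaling, the trend, a replicate block and each library left out. Treating isolated zeros as missing and leaving out both chromatin libraries numbered 3 were added after seeing the data. Cytoplasmic libraries were not used here.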

Additional observations from a re-analysis of the deposited data

Results flagged for a closer look

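These genes stood out because the EpiLC minus nESC difference on chromatin departed from that in another RNA fraction by a test of the interaction itself (limma, 12 libraries, adjusted p under 0.05 and at least 2-fold). They are the 10 largest in each direction against each fraction.

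Above total RNA were Trh (4.60), Dppa3 (4.06), Ly6g6e (3.33), Lefty2 (3.28), Spp1 (2.90), Fbxo15 (2.76), Lst1 (2.73), Pcolce (2.66), Nupr1 (2.64) and Ifitm1 (2.51), all as log2 departures. Spp1, the secreted matrix protein osteopontin, stood at 452, 437 and 464 FPKM in nESC total RNA and 17.2, 19.7 and 19.3 FPKM in EpiLC total RNA, and at 132, 195 and 136 FPKM against 38.2, 30.1 and 89.4 FPKM on chromatin.

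Below total RNA were Fos (−5.92), Id3 (−3.86), Fosb (−3.49), H19 (−3.27), Actc1 (−2.87), Srpk3 (−2.85), Pim2 (−2.85), Arsb (−2.63), Ttn (−2.52) and Atf7ip (−2.49). H19 and Actc1 rest on few libraries: in EpiLC total RNA H19 stood at 0.89, 14.8 and 15.2 FPKM and Actc1 at 0.324, 7.95 and 8.35 FPKM, with both at 0 in nESC total RNA and under 1 FPKM on chromatin. Atf7ip leans on 1 library, since nESC chromatin stood at 35.5, 197 and 26.9 FPKM, and its departure was −1.60 (adjusted p = 0.00044, limma) without nESC chromatin replicate 2. Ttn, the giant muscle protein titin, stood at 3.18, 1.95 and 1.49 FPKM in EpiLC and 19.5, 17.9 and 24.1 FPKM in nESC on chromatin, and between 0.75 and 1.45 FPKM in total RNA.

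Above nucleoplasm were Ptgds (3.48), Napsa (3.41), Uba7 (3.13), Fxyd4 (3.04), Aldh3a1 (2.93), Cfp (2.86), Lars2 (2.86), Lst1 (2.85), Etfrf1 (2.79) and Npb (2.68). Below it were Id3 (−4.09), Arsb (−3.72), Sp5 (−3.40), T (−3.30), Bach2 (−3.21), Gdf1 (−2.99), Xkrx (−2.93), Pim2 (−2.82), Dnmt3l (−2.73) and Timm21 (−2.72). Arsb, the lysosomal arylsulfatase B, was high on nESC chromatin, at 16.4, 38.1 and 16 FPKM, against at most 1.9 FPKM in EpiLC chromatin. Bach2, a transcriptional repressor, stood at 5.44, 5.6 and 9.37 FPKM in EpiLC chromatin and 28.3, 24.8 and 19.8 FPKM in nESC chromatin.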

How the results depend on the processing

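A filter at 5 FPKM cut the chromatin calls to 1866 of 10114 genes compared (1025 higher, 841 lower). It cut the departures from total RNA to 840 of 9215 (308 above, 532 below). Those from nucleoplasm fell to 613 of 9278 (368 above, 245 below). Fewer genes were compared and a smaller share of them was called, and the cause was not tested. Without a filter 994 genes lay above total RNA and 1228 below nucleoplasm; the cause was not tested. Scaling each library to one sum gave 344 above total RNA (1004 below) and 373 below nucleoplasm (732 above); the cause was not tested. Leaving out each library in turn gave 3280 to 3483 chromatin calls (1821 to 1857 higher, 1459 to 1629 lower). It gave 1266 to 1579 departures from total RNA (501 to 668 above, 751 to 934 below) and 1094 to 1481 from nucleoplasm (549 to 716 above, 495 to 765 below). At a pseudocount of 1 the chromatin calls were 2630, and at 0.1 they were 3724. Among named genes none reversed. The departures of H19 (−2.68 at the lowest size, adjusted p = 0.0607, without EpiLC total replicate 3), Actc1 (−2.90 to −2.80 without each of 8 single libraries and −2.72 with no filter) and Atf7ip (−2.49 to −2.48 without each of 4) lost their call at adjusted p of 0.0504 to 0.0704, and so did Lst1 against nucleoplasm at a pseudocount of 0.1 (2.02, adjusted p = 0.107).

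The shared replicate numbers were checked for pairing: deviations of same-numbered chromatin and other libraries correlated at −0.19 to 0.09, and several libraries correlated best with another number, so the numbers were not taken as pairs. With a replicate block the departures were 1405 from total RNA (584 above, 821 below) and 1179 from nucleoplasm (601 above, 578 below). Depth limits genes near 1 FPKM, whose counting error is 14.4 to 17.9% a library in a 2 kb transcript. FPKM tables were made separately for the 2 states, so a test of the direct difference could not tell the state from the table, and none is given.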
